A study of Mus musculus with 14 samples.

Results

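Fgfr3-p53 cKO clones isolated at P28 were compared with Fgfr3-WT clones isolated at P23 by bulk RNA-seq of cultured cells, over every gene of the deposited count table. The comparison was defined by the sample labels and took 10 of the 14 samples of the series, 5 Fgfr3-WT and 5 cKO P28 clones. The other 4 were cKO clones isolated at 4 months (P4M), which entered the model fit and are given beside a result where they bear on it. The mice of both groups carried the Fgfr3-creER transgene and the R26R-tdTomato reporter and were pulsed with tamoxifen at P21. The cKO mice were also Trp53 fl/fl. The study reports a mixed strain background for its mice. Each clone was grown from 1 tdTomato+ femoral bone marrow cell and expanded. The labels put Fgfr3-WT and P28 clones at passage 8 and P4M clones at passages 6 to 8, whereas the methods of the study put the cKO clones of both ages at passages 6 to 8. The creER recombinase was driven by Fgfr3, so Trp53 was deleted in cells that used this promoter at P21. Each library is therefore 1 clone, and p values measure the spread between clones. The number of mice behind the clones was not given in the labels, and the study gives the group sizes both as clones and as mice. The groups differed in age at isolation (23 against 28 days). All Fgfr3-WT libraries belonged to 1 submission number and all cKO libraries to another. Time in culture was not matched either, and the study reports that Fgfr3-WT clones took much longer than cKO clones to reach a late passage. It also reports that a small part of the Fgfr3-WT clones, but most cKO clones, could be passaged that far. The Fgfr3-WT libraries therefore come from the few clones that lasted in culture. The effect of this selection was not tested. Genotype, age, submission, time in culture and the selection of clones that lasted therefore cannot be told apart anywhere below. Where a value is given for each clone, the order is that of replicates 1 to 5 in both groups.

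p53, encoded by Trp53, is a transcription factor that is stabilised by DNA damage and oncogene stress and turns on genes for cell cycle arrest, DNA repair and cell death. Its target Cdkn1a (p21) restrains cyclin-dependent kinases, which keeps the retinoblastoma proteins bound to E2F factors and, through the DREAM complex, holds genes of mitosis low. The Trp53 gene is deleted or rearranged in many osteosarcomas, and Fgfr3 marks marrow stromal cells at the inner bone surface.

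A whole-number count per gene was available for 30503 genes in each clone. The totals were 25688946 to 38958693 counts in the Fgfr3-WT clones and 37606033 to 48648618 in the P28 clones, and 3 counts, the limit that a count of 0 allows, corresponded to 0.077 to 0.117 and 0.0617 to 0.0798 CPM (counts relative to the library total) respectively. Such limits cover counting error only. All values below are CPM on totals scaled by trimmed mean of M values (TMM). The tdTomato transcript was present in every clone, at 1959 to 4409 CPM before that scaling in Fgfr3-WT and at 2369 to 6836 CPM in P28. Long intergenic noncoding RNAs took 1.56 to 3.08% of the counts in Fgfr3-WT and 0.623 to 0.694% in P28, and mitochondrial genes 2.18 to 3.78% and 2.20 to 2.31%. Protein-coding genes took 88.0 to 93.9% in Fgfr3-WT and 96.2 to 96.7% in P28, without overlap. Fgfr3-WT replicate 2 had the lowest such share, 88.0%, and CT010467.1 was the gene with most counts in it. One Fgfr3-WT library, replicate 1, stood apart by sex-linked genes: Ddx3y, on the Y chromosome, was at 123.2 CPM there and at 0 in the other 4, and Xist, the RNA of the inactive X, was at 0.163 CPM there and at 229 to 1079 CPM in the others. Every P28 clone held 618 to 893 CPM of Xist. Without that library 7253 genes were called in place of 6750, and without chromosomes X and Y 6592.

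Of the 17358 genes tested, 6750 (38.9%) passed an adjusted p of 0.05, 3336 higher (19.2%) and 3414 lower (19.7%) in P28. The median log2 fold change of all tested genes was -0.02. The clones of the 2 groups did not overlap at all for 4258 genes (24.5%), with all P28 clones above for 2258 (13.0%) and below for 2000 (11.5%). Among genes called higher, 1147 changed by at least 2 and 150 by at least 6 on the log2 scale. Among genes called lower these counts were 815 and 92. With so large a share of the genes called, the counts of each group of genes below are read against these shares.

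**Figure D1:**
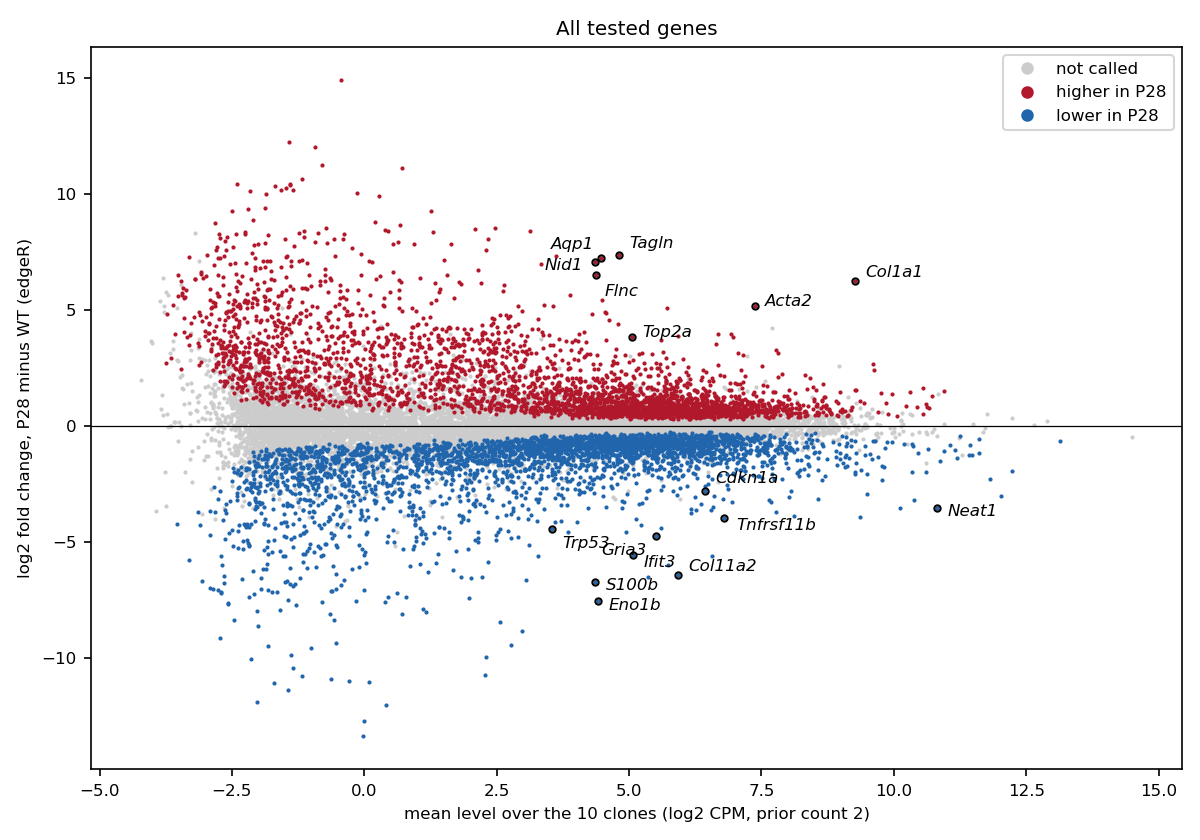
Log2 fold change of each tested gene (P28 minus Fgfr3-WT, vertical axis, edgeR) against its mean level over the 10 clones (log2 CPM with a prior count of 2, horizontal axis). Red points were called higher and blue points lower at an adjusted p of 0.05, grey points were not called, and 16 genes described in the text are ringed, from Tagln at 7.38 to Eno1b at -7.58.

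The targeted gene Trp53 (chr11:69580359-69591873, mm10, plus strand) was at 55.4, 49.9, 68.2, 50.4 and 51.1 CPM in Fgfr3-WT and 2.47, 2.84, 2.37, 2.48 and 2.18 CPM in P28. All 5 P28 clones thus lay far below all Fgfr3-WT clones, within a narrow range in both groups (log2 fold change -4.48 ± 0.15, edgeR adjusted p = 2.14e-09, where ± is the standard error throughout). It had the lowest adjusted p of all genes tested. The count covers the whole gene, so reads from exons outside the deleted part are not separated from the rest. P4M clones held 2.08, 2.37, 1.72 and 2.22 CPM.

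Genes activated by p53 were lower as a group. Of 29 tested, 19 were called lower (19.7% of all genes), 1 higher and 9 neither, with a median log2 fold change of -1.39, and 14 had all P28 clones below all Fgfr3-WT clones. Cdkn1a, the cyclin-dependent kinase inhibitor p21, was at 291, 198, 174, 243 and 331 CPM in Fgfr3-WT and 35.3, 58.7, 47.1, 12.9 and 21.9 CPM in P28 (log2 fold change -2.81 ± 0.40, edgeR adjusted p = 0.000223). The lowest Fgfr3-WT clone held more than the highest P28 clone, and P28 replicates 4 and 5 were the lowest. In the P4M clones, which carry the same deletion, Cdkn1a stood at 154, 265, 96.3 and 165 CPM, above every P28 clone (P4M against P28, log2 fold change 2.27 ± 0.40, edgeR adjusted p = 0.00895, a contrast that called 7.22% of all genes, 3.34% higher and 3.88% lower). Mdm2, the ubiquitin ligase that degrades p53, was at 266, 139, 149, 235 and 333 CPM in Fgfr3-WT and 46.8, 50.3, 47.1, 55.6 and 58.7 CPM in P28 (log2 fold change -2.12 ± 0.23, edgeR adjusted p = 4.11e-05). Ccng1, cyclin G1, was at 218, 244, 164, 315 and 758 CPM in Fgfr3-WT and 66.3, 71.3, 77.6, 58.1 and 71.7 CPM in P28 (log2 fold change -2.30 ± 0.34, edgeR adjusted p = 0.000314), with Fgfr3-WT replicate 5 the highest of all clones.

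Among the death genes of the list, Bax, which permeabilises mitochondria, lay at 124 to 226 CPM in Fgfr3-WT against 47.5 to 104 CPM in P28 (log2 fold change -1.39 ± 0.24, edgeR adjusted p = 0.000674). Bbc3 (PUMA) lay at 16.5 to 33.4 CPM in Fgfr3-WT against 5.08 to 12.8 CPM in P28 (log2 fold change -1.30 ± 0.31, edgeR adjusted p = 0.00544). The death receptor gene Eda2r fell furthest, at 13.4, 22.6, 5.58, 27.3 and 64.2 CPM in Fgfr3-WT and 0.516, 0.43, 1.51, 0.242 and 0.384 CPM in P28 (log2 fold change -5.42 ± 0.74, edgeR adjusted p = 0.00019). Phlda3, an inhibitor of Akt signalling, and Zmat3, an RNA-binding regulator, were also called without overlap (log2 fold changes -2.60 and -1.09). The nucleotide excision repair gene Xpc fell by less, at 21.2 to 44.5 CPM in Fgfr3-WT against 13.5 to 19.6 CPM in P28 (log2 fold change -1.04 ± 0.19, edgeR adjusted p = 0.00106). Groups did not overlap for Aen, an apoptosis-enhancing nuclease, at 95.0 to 215 CPM in Fgfr3-WT against 18.2 to 33.6 CPM in P28, yet its adjusted p was 0.0449 (-2.25 on the log2 scale). The P4M clones held 36.8, 0.0228, 27.4 and 30.3 CPM of it, and the fit takes its estimate of spread from all 14 clones. Without P4M replicate 2 the adjusted p was 0.00011, while it was above 0.05 in 12 other fits that left out a clone, at up to 0.0881. Sesn1 and Ppm1d, also classical targets, had log2 fold changes of 0.02 and 0.26 with overlapping clones and were not called. The exception in direction was Plk2, a polo-like kinase, at 18.5 to 48.7 CPM in Fgfr3-WT against 34.1 to 207 CPM in P28 (log2 fold change 1.64 ± 0.48, edgeR adjusted p = 0.0167), whose call was lost without P28 replicate 3 (adjusted p = 0.0544). Of the p53 regulators, Mdm4, which holds p53 inactive, was lower without overlap (109.6 to 254 CPM in Fgfr3-WT against 50.8 to 87.0 CPM in P28, log2 fold change -1.38 ± 0.23, edgeR adjusted p = 0.000638). The others named here, Trp53bp1, Rchy1, Cop1 and Usp7, differed by at most 0.35 on the log2 scale and were not called (Usp7 was without P28 replicate 2, adjusted p = 0.0228).

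**Figure D2:**
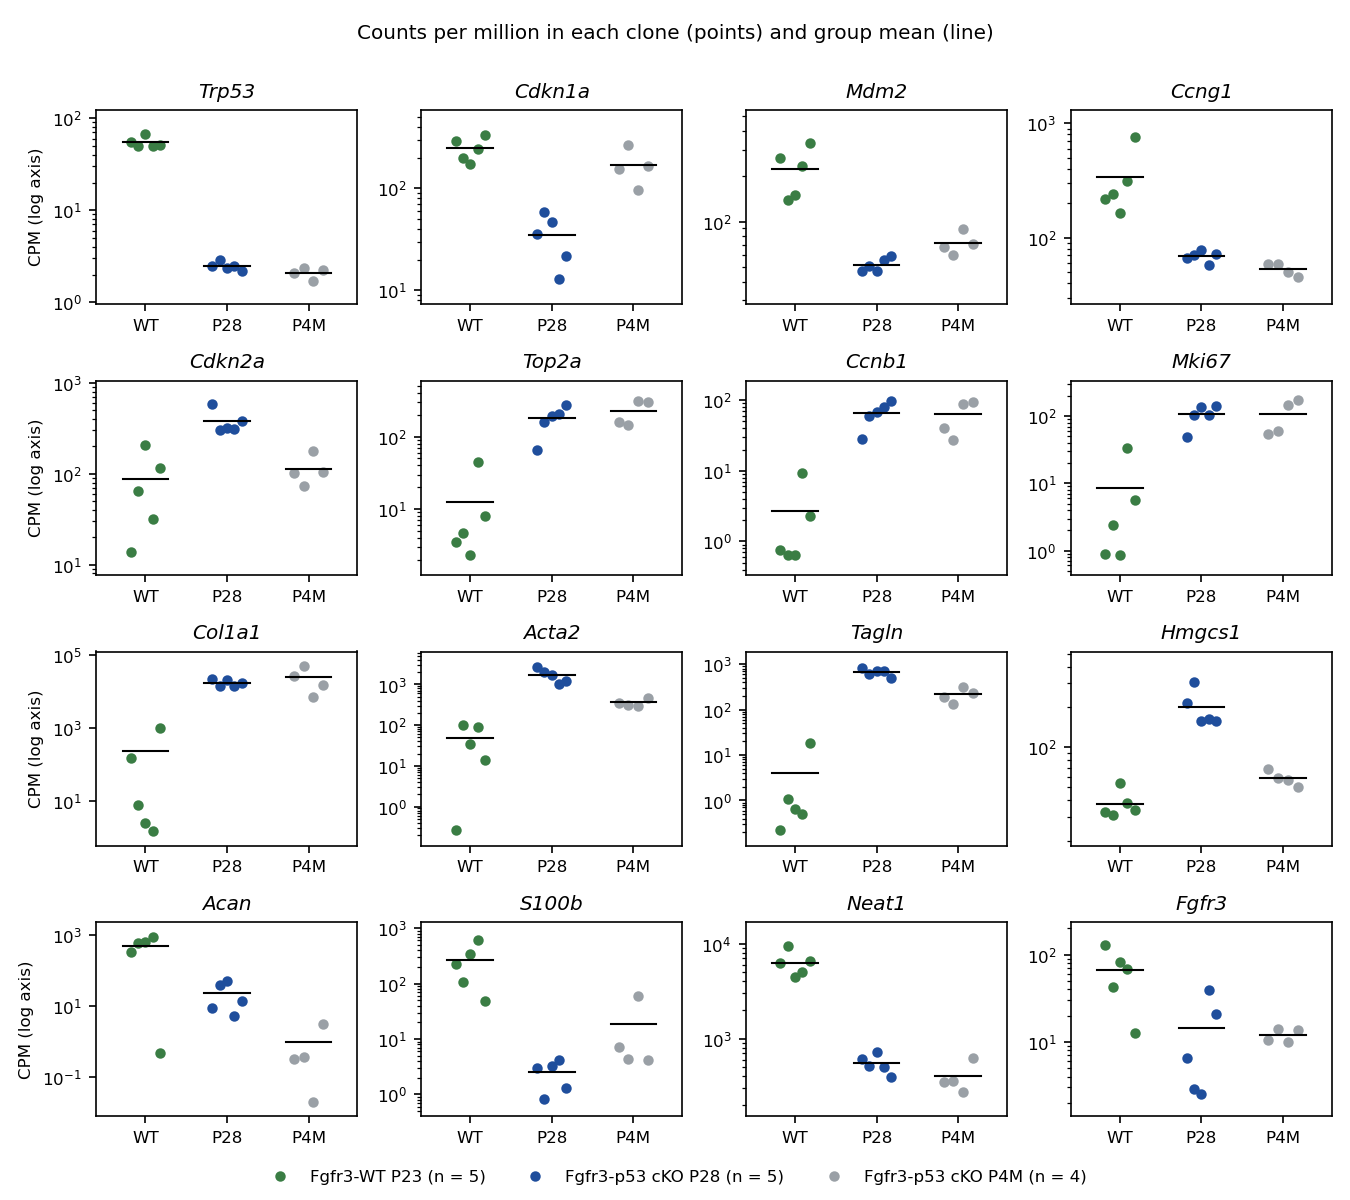
Level in CPM (log axis) of 16 genes in each clone (points) with the group mean (line), for 5 Fgfr3-WT, 5 cKO P28 and 4 cKO P4M clones. Trp53 sits at 49.9 to 68.2 CPM in Fgfr3-WT and at 2.18 to 2.84 CPM in P28, the cell cycle genes Top2a, Ccnb1 and Mki67 sit higher in every P28 clone than in any Fgfr3-WT clone, and Cdkn1a is lowest in P28.

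Of 7 cyclin-dependent kinase inhibitors, Cdkn1a was the only one called lower (2 were without P28 replicate 3), and Cdkn2a and Cdkn1c were called higher. Cdkn2a, whose locus encodes both p16 and the p53 activator p19 Arf, was at 13.9, 65.1, 208, 31.6 and 115 CPM in Fgfr3-WT and 583, 302, 316, 308 and 379 CPM in P28, with every P28 clone above every Fgfr3-WT clone (log2 fold change 2.12 ± 0.57, edgeR adjusted p = 0.0101). P4M clones held 102, 72.4, 178 and 104 CPM of it (P4M against P28, log2 fold change -1.73 ± 0.61, edgeR adjusted p = 0.0946). The 2 products of the locus are not separated by a count per gene. Cdkn1b (p27) at 80.5 to 182 CPM in Fgfr3-WT against 44.3 to 101 CPM in P28 was not called (log2 fold change -0.67 ± 0.28, edgeR adjusted p = 0.0755, and 0.0288 without P28 replicate 3), nor were Cdkn2b (p15) and Cdkn2c (p18). Cdkn1c (p57), an imprinted inhibitor, lay at 0 to 1.15 CPM in Fgfr3-WT against 0 to 47.5 CPM in P28 (log2 fold change 5.13 ± 1.88, edgeR adjusted p = 0.0446), and this call was lost in 10 of the 14 fits without 1 clone, all but those without Fgfr3-WT replicate 2, P28 replicate 4 or 5 or P4M replicate 4, at up to 0.148.

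Genes of the dividing cell were higher in P28 almost throughout. All 36 mitosis genes tested were called higher (against 19.2% of all genes), with a median log2 fold change of 3.56, and for 32 of them every P28 clone lay above every Fgfr3-WT clone. Ccnb1, cyclin B1, the partner of Cdk1 at entry into mitosis, was at 0.749, 0.65, 0.647, 9.22 and 2.3 CPM in Fgfr3-WT and 28.5, 60.4, 67.1, 80.2 and 97.7 CPM in P28 (log2 fold change 4.60 ± 0.79, edgeR adjusted p = 0.000741). Top2a, the topoisomerase that untangles sister chromatids, was at 3.45, 4.67, 2.35, 45.0 and 7.95 CPM in Fgfr3-WT and 66.4, 159, 193, 209.5 and 273 CPM in P28 (log2 fold change 3.83 ± 0.78, edgeR adjusted p = 0.00208). The proliferation marker Mki67 was at 0.88, 2.41, 0.85, 33.4 and 5.74 CPM in Fgfr3-WT and 49.1, 103, 136, 105 and 142 CPM in P28 (log2 fold change 3.62 ± 0.92, edgeR adjusted p = 0.00758). For these 3 genes Fgfr3-WT replicate 4 was the highest clone of its group and P28 replicate 1 the lowest of its own. The kinesin Kif20a (3.96), the checkpoint kinases Bub1 (4.23) and Bub1b (4.28), separase Espl1 (4.26) and the anaphase activator Cdc20 (3.93) had log2 fold changes of about the same size. The smallest change in the list was that of Incenp, at 1.23, a call lost without Fgfr3-WT replicate 2 or 3 or P28 replicate 4 or 5 at adjusted p values of up to 0.0626, and Cdk1 itself came next, at 1.52, with overlapping clones. With a minimum of 10 counts in each of the 10 clones, a filter that removes genes near 0 in a Fgfr3-WT clone, 21 mitosis genes were left that were called higher.

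DNA replication genes changed in the same direction by less. Of 36, 34 were called higher and none lower, with a median of 1.71, and Gins3 and Rrm2 were not called (Rrm2 was without P28 replicate 1, adjusted p = 0.0476). The replicative helicase subunits Mcm2 to Mcm7 all rose, from 1.70 for Mcm7 to 3.71 for Mcm5. Mcm5 was at 3.91, 2.33, 1.21, 19.1 and 2.53 CPM in Fgfr3-WT and 27.5, 74.8, 82.0, 80.3 and 119 CPM in P28 (log2 fold change 3.71 ± 0.69, edgeR adjusted p = 0.0012). Uhrf1, which brings the maintenance DNA methyltransferase to new DNA, was at 1.89, 1.53, 0.89, 11.8 and 6.65 CPM in Fgfr3-WT and 23.1, 43.9, 56.4, 78.9 and 107 CPM in P28 (log2 fold change 3.76 ± 0.68, edgeR adjusted p = 0.00108). The sliding clamp gene Pcna, at 44.6 to 81.8 CPM in Fgfr3-WT against 70.9 to 198 CPM in P28, overlapped between the groups (log2 fold change 0.97 ± 0.25, edgeR adjusted p = 0.00821). Genes of recombination and the replication checkpoint followed, with 17 of 22 higher and a median of 2.08. Brca1 (3.26), Fancd2 (3.42) and Exo1 (3.93) rose without overlap, while the damage-sensing kinase gene Atm (-0.10) was not called and Atr was slightly lower (-0.38, edgeR adjusted p = 0.0272), a call lost without Fgfr3-WT replicate 5 (adjusted p = 0.0513) or P28 replicate 1 (0.0546).

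Of the 21 regulators of G1 and S phase, 9 were higher and 1 lower. Those that rose most, E2f7 (4.34), E2f8 (2.77), Ccna2 (3.67) and Ccne2 (2.57), are themselves expressed at the G1/S boundary or later. Cdk4, the G1 kinase, rose by 0.61 without overlap (211 to 297 CPM in Fgfr3-WT against 366 to 445 CPM in P28, edgeR adjusted p = 0.00339), and Cdk6 by 1.14. E2f1 (-0.24), Ccnd1 (-0.15) and Rb1 (-0.62) were not called, and Ccnd2 was the lower one, at 808 to 1983 CPM in Fgfr3-WT against 569.8 to 1002 CPM in P28 (log2 fold change -0.69 ± 0.25, edgeR adjusted p = 0.0451). Its call was lost without Fgfr3-WT replicate 3 or 5, without P28 replicate 1, 2, 3 or 5, or without P4M replicate 1, 3 or 4, at adjusted p values of up to 0.121, and Rb1 was called without Fgfr3-WT replicate 3 (0.0277) or P28 replicate 2 (0.0201).

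Since these lists moved together, the promoters of their members were searched for short elements of cell cycle genes, on both strands of the RefSeq windows that run from 250 bases before to 50 bases after each start (GRCm38.p6). The CHR element TTTGAA, bound by the DREAM and MuvB complexes, was found in the windows of 22 of 29 mitosis genes with a window (75.9%), of 5 of 28 DNA replication genes (17.9%) and of 20.2% of all 27025 genes. CCAAT, the box bound by NF-Y, was in 22 of 29 mitosis genes against 41.1% of all genes. The E2F element, searched as TTTCGCGC and TTTGGCGC, was in 1 of 29 mitosis genes, in 10 of 28 DNA replication genes (35.7%) and in 0.929% of all genes. A match is a description of these letters and not evidence of binding. The stretches from 110 bases before to 20 bases after the start are shown for 4 mitosis genes. These were chosen from part of the list for a high log2 fold change and a CHR element within the stretch. Some members with a larger change are not shown. CHR and CCAAT matches are in capitals on either strand. In each of the 4 stretches a CCAAT box lies upstream of the CHR. The CHR begins between 29 bases before the start (Ube2c) and 2 bases after it (Kif23). Cdc20 holds another CCAAT box downstream of its CHR.
Espl1 (chr15:102296183-102296312, plus strand): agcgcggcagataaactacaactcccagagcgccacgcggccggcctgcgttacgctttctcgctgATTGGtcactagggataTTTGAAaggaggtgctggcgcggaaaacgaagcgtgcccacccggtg
Kif23 (chr9:61946780-61946909, minus strand): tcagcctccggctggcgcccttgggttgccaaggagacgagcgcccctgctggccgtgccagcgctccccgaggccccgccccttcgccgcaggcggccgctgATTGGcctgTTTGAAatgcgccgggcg
Cdc20 (chr4:118437324-118437453, minus strand): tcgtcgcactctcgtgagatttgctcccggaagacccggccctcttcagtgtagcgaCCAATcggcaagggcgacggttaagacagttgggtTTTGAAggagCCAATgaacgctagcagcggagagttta
Ube2c (chr2:164769819-164769948, plus strand): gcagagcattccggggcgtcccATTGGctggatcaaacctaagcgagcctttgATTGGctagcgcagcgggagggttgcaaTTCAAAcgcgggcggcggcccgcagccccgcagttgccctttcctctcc

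The DNA replication genes Mcm6 and Rfc3 are shown beside them, with E2F and CCAAT matches in capitals. Mcm6 rose by 2.16 and Rfc3 by 1.30 on the log2 scale, both without overlap, and neither stretch holds a CHR element. Mcm6 holds 3 E2F matches, of which 2 overlap each other at the start of the stretch.
Mcm6 (chr1:128359686-128359815, minus strand): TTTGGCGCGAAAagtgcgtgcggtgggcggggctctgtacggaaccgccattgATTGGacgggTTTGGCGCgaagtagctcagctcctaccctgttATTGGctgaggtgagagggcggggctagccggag
Rfc3 (chr5:151651189-151651318, minus strand): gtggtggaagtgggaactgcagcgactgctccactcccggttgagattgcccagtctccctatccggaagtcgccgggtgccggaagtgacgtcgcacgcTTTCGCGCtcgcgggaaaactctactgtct

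The bone lists were mixed, with some large rises, while the cartilage list leaned lower. Col1a1, the main collagen of bone, was at 154, 7.61, 2.39, 1.45 and 1029 CPM in Fgfr3-WT and 22012, 14742, 20524, 14680.0 and 17270.5 CPM in P28. Fgfr3-WT replicates 1 and 5 held far more than replicates 2 to 4, and the lowest P28 clone still held over 10 times more than the highest Fgfr3-WT clone (log2 fold change 6.22 ± 1.60, edgeR adjusted p = 0.00819). Col1a2, the partner chain, did not overlap between the groups either (0.0326 to 4354 CPM in Fgfr3-WT against 11186 to 20798 CPM in P28) but was not called, its Fgfr3-WT clones being spread over 5 orders of magnitude (log2 fold change 4.23 ± 2.17, edgeR adjusted p = 0.139). Without Fgfr3-WT replicate 5 it was called (adjusted p = 1.39e-06). Other genes of the bone matrix list that were higher without overlap were Smpd3, a sphingomyelinase needed for mineralisation (7.16), Serpinf1, the anti-angiogenic factor PEDF (3.82), and Phospho1, a phosphatase that starts mineral formation (2.98). Alpl, the phosphatase that clears pyrophosphate, was at 0, 19.1, 1.78, 1.88 and 78.4 CPM in Fgfr3-WT and 30.5, 57.9, 10.5, 1858 and 916 CPM in P28 (log2 fold change 4.83 ± 1.68, edgeR adjusted p = 0.0363). P28 replicates 4 and 5 were the high ones, and without either the adjusted p was 0.0937 and 0.061. It was also above 0.05 without Fgfr3-WT replicate 2, 3 or 4, at up to 0.07. In the other direction, osteopontin Spp1 was at 1386, 3762, 998, 2254 and 2144 CPM in Fgfr3-WT and 471, 301, 545, 508 and 258 CPM in P28 (log2 fold change -2.34 ± 0.35, edgeR adjusted p = 0.000318). Enpp1, which makes pyrophosphate, lay at 99.3 to 579 CPM in Fgfr3-WT against 9.86 to 83.3 CPM in P28 (log2 fold change -3.07 ± 0.61, edgeR adjusted p = 0.00179). Of 17 genes of the list, 6 were higher, 2 lower and 9 not called (47.1% called against 38.9% of all genes). Only 3 were called higher with at least 10 counts in each clone. The late genes Bglap, Ibsp, Dmp1 and Phex were not called (Ibsp was without Fgfr3-WT replicate 5, adjusted p = 0.0151). Of 11 transcription factors of the lineage, only Runx2, its master regulator, was called, at 40.7, 44.1, 40.9, 35.3 and 94.0 CPM in Fgfr3-WT and 101, 89.8, 86.3, 150.4 and 141 CPM in P28 (log2 fold change 1.16 ± 0.28, edgeR adjusted p = 0.00555). The share of these factors called was thus 9.09%, against 38.9% of all genes. Without Fgfr3-WT replicate 2 or 3 or P28 replicate 2, 2 of these factors were called higher, and without Fgfr3-WT replicate 5, 3. Sp7 (osterix) was at 0, 0.191, 0.0405, 0.0569 and 38.7 CPM in Fgfr3-WT and 3.38, 9.78, 5.47, 293 and 289.5 CPM in P28 (log2 fold change 3.95 ± 1.86, edgeR adjusted p = 0.108), with Fgfr3-WT replicate 5 at the top of its group. Without that clone its adjusted p was 0.00139.

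The cartilage list leaned lower, with 9 of 18 genes lower (19.7% of all genes were), 1 higher and a median of -1.51. None was higher without Fgfr3-WT replicate 2, 3 or 5 or P28 replicate 2 or 3. Sox9, the master regulator of chondrocytes, was at 187, 109, 161, 159 and 97.9 CPM in Fgfr3-WT and 57.5, 25.5, 37.0, 21.6 and 18.1 CPM in P28, with no overlap (log2 fold change -2.16 ± 0.50, edgeR adjusted p = 0.00457). Col11a2, a chain of cartilage collagen XI, was at 727, 334, 734, 2444 and 20.6 CPM in Fgfr3-WT and 12.1, 5.98, 13.6, 8.52 and 9.22 CPM in P28 (log2 fold change -6.43 ± 1.31, edgeR adjusted p = 0.00212), Fgfr3-WT replicate 5 being the lowest of its group. That clone was also below every P28 clone for Acan, the gene of the proteoglycan aggrecan, at 326, 606, 626, 884 and 0.475 CPM in Fgfr3-WT and 8.91, 37.7, 49.97, 5.16 and 14.1 CPM in P28 (log2 fold change -4.40 ± 1.34, edgeR adjusted p = 0.0195). Without Fgfr3-WT replicate 5 the adjusted p of Acan was 0.00279. Col2a1, collagen II, was at 228 to 21551 CPM in Fgfr3-WT against 138 to 1298 CPM in P28 (log2 fold change -3.21 ± 1.10, edgeR adjusted p = 0.033), a call lost without Fgfr3-WT replicate 4 (adjusted p = 0.112) or without any 1 of P28 replicates 1, 2, 3 and 5. Col10a1, the collagen of hypertrophic chondrocytes, was not called (-0.56). In bulk libraries, fewer cells of a type and less RNA per cell cannot be told apart.

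Fgfr3, the gene whose promoter drove the recombinase, was at 129, 42.2, 83.0, 68.7 and 12.5 CPM in Fgfr3-WT and 6.6, 2.87, 2.54, 39.0 and 20.8 CPM in P28 (log2 fold change -2.22 ± 0.74, edgeR adjusted p = 0.03). Fgfr3-WT replicate 5 lay below 2 of the P28 clones, and the call was lost without Fgfr3-WT replicate 1 or 3 or P28 replicate 1, 2 or 3, at adjusted p values of up to 0.0665. Among the other stromal and stem cell markers, Mcam (CD146) was higher without overlap, at 1.08, 0.268, 0.0809, 0.455 and 0.712 CPM in Fgfr3-WT and 30.0, 21.7, 32.0, 19.9 and 16.5 CPM in P28 (log2 fold change 5.52 ± 0.51, edgeR adjusted p = 1.4e-05). Cd44, the hyaluronan receptor, was higher with overlap (73.6 to 193 CPM in Fgfr3-WT against 171 to 449 CPM in P28, log2 fold change 1.29 ± 0.35, edgeR adjusted p = 0.0106). Nt5e (CD73) was lower (65.7 to 127 CPM in Fgfr3-WT against 30.2 to 70.4 CPM in P28, log2 fold change -0.84 ± 0.24, edgeR adjusted p = 0.014). Pdgfra (0.23), Pdgfrb (0.36), Ly6a (-0.78) and Grem1 (-2.41) were not called. Of the marrow reticular markers, Lepr was higher at a low level (0 to 0.277 CPM in Fgfr3-WT against 0.914 to 12.8 CPM in P28, log2 fold change 6.38 ± 1.47, edgeR adjusted p = 0.00435). Cxcl12, a chemokine that retains blood cells in the marrow, lay at 0 to 222 CPM in Fgfr3-WT against 317 to 520.4 CPM in P28 without overlap and was not called (log2 fold change 2.99 ± 1.46, edgeR adjusted p = 0.121). Without Fgfr3-WT replicate 5, the clone at the top of its group, the adjusted p was 0.00938.

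Genes of the contractile, smooth muscle-type cytoskeleton had the highest median of the 33 pathway lists, 3.96. Of 14, 12 were higher and none lower, against 19.2% of all genes higher. With at least 10 counts in each of the 10 clones, a filter that removes genes near 0 in a Fgfr3-WT clone, 4 were left that were called higher. Tagln (transgelin) was at 0.228, 1.07, 0.647, 0.512 and 18.1 CPM in Fgfr3-WT and 849, 629, 714, 714 and 505 CPM in P28 (log2 fold change 7.38 ± 1.17, edgeR adjusted p = 0.00044), the largest rise among genes named by level and lack of overlap. Acta2, smooth muscle actin, was at 0.261, 99.5, 34.7, 91.0 and 13.7 CPM in Fgfr3-WT and 2709.9, 2019.6, 1691, 1052 and 1199 CPM in P28 (log2 fold change 5.18 ± 0.98, edgeR adjusted p = 0.00142), with Fgfr3-WT replicate 1 near 0. Both were lower in P4M than in P28 on average, Tagln at 218 and Acta2 at 362 CPM, and neither difference was called (Acta2, log2 fold change -2.26 ± 0.94, edgeR adjusted p = 0.148, and Tagln, log2 fold change -1.65 ± 0.97, edgeR adjusted p = 0.306). Myl9, the regulatory light chain (7.56), calponin Cnn1 (7.32), and the tropomyosins Tpm2 (3.88) and Tpm1 (2.42) rose without overlap. The focal adhesion gene Vcl (vinculin), 1 of the 5 genes with the lowest adjusted p at this level, was at 59.2, 79.4, 67.6, 80.4 and 99.7 CPM in Fgfr3-WT and 649, 532, 623, 924 and 637 CPM in P28 (log2 fold change 3.12 ± 0.19, edgeR adjusted p = 5.76e-07). Flnc, the actin crosslinker filamin C, was at 0.293, 1.99, 2.06, 0.484 and 10.96 CPM in Fgfr3-WT and 301, 269.6, 349.9, 293 and 199 CPM in P28 (log2 fold change 6.49 ± 0.92, edgeR adjusted p = 0.000228). Myocd, the smooth muscle regulator, stayed at 0.463 CPM or less in every P28 clone, and its call (4.03) was lost without Fgfr3-WT replicate 1, 2 or 4 (adjusted p up to 0.0574).

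Nid1 (nidogen, a basement membrane protein) was at 8.6, 0.0765, 0.405, 4.35 and 1.11 CPM in Fgfr3-WT and 579, 374, 649, 173 and 201 CPM in P28 (log2 fold change 7.07 ± 1.0, edgeR adjusted p = 0.000228). The collagen IV chains Col4a1 and Col4a2 had log2 fold changes of 5.09 and 3.98, and none of the 3 overlapped. Aqp1, a water channel, was at 10.6, 0.957, 0.647, 1.14 and 1.31 CPM in Fgfr3-WT and 986, 254, 465, 477 and 44.2 CPM in P28 (log2 fold change 7.24 ± 1.02, edgeR adjusted p = 0.000227), with a wide range among the P28 clones. Gpnmb, a glycoprotein of osteoblasts and macrophages (4.85), Cdh11, the osteoblast cadherin (3.94), Megf6 (5.40) and Basp1 (4.37) complete the 15 named for the largest rises together with Col1a1, Tpm2, Kif20a and Top2a. In the fibroblast matrix list 7 of 25 were higher and 3 lower, 40.0% called against 38.9% of all genes. Only 4 were higher without P28 replicate 1, and only 1 was lower without Fgfr3-WT replicate 4 or P28 replicate 2 or 4. Col5a1 rose without overlap (127 to 614 CPM in Fgfr3-WT against 1614 to 2691 CPM in P28, log2 fold change 2.66 ± 0.39, edgeR adjusted p = 0.000257). Fibronectin Fn1 was not called (log2 fold change -0.51 ± 0.45, edgeR adjusted p = 0.399). Among matrix proteases 9 of 18 rose, including the collagenase activator Mmp14 (99.7 to 275 CPM in Fgfr3-WT against 647 to 827 CPM in P28, log2 fold change 2.04 ± 0.31, edgeR adjusted p = 0.000317) and Adamts2, the procollagen peptidase (4.64), while Mmp3 (-3.27) and the inhibitor Timp2 (-1.05) fell. The call of Mmp3 was lost without Fgfr3-WT replicate 1 or 2 or any P28 clone, at adjusted p values of up to 0.0892.

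Among signalling pathways, Wnt genes had the largest share of calls in one direction, 18 of 28 higher and 1 lower (0 to 3 over the fits that left out a clone), with a median of 2.15. The ligand Wnt5a was at 30.3, 43.0, 27.1, 14.6 and 23.3 CPM in Fgfr3-WT and 133, 108, 95.8, 76.2 and 113 CPM in P28 (log2 fold change 1.93 ± 0.24, edgeR adjusted p = 0.000105). Axin2, a feedback inhibitor that Wnt signalling itself turns on, was at 1.01, 0.65, 3.11, 0.825 and 0.752 CPM in Fgfr3-WT and 6.84, 20.3, 8.17, 24.6 and 10.5 CPM in P28 (log2 fold change 3.48 ± 0.60, edgeR adjusted p = 0.000755). Sfrp2, a secreted Wnt modulator, was at 0.0977, 0.268, 0, 3.78 and 2.61 CPM in Fgfr3-WT and 146, 8.75, 95.4, 1502 and 569 CPM in P28 (log2 fold change 8.40 ± 1.57, edgeR adjusted p = 0.00128), and Dkk3 rose by 5.64. The receptor Fzd1 rose by 1.48, without overlap. Since many of these genes were near 0 in Fgfr3-WT, a minimum of 10 counts in each clone left 8 called higher.

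In the TGF-beta and BMP list 6 of 28 were higher (19.2% of all genes were), and 2 without Fgfr3-WT replicate 4 or without P28 replicate 4. In either direction 28.6% of the list was called, against 38.9% of all genes. The ligand Bmp4 was at 0, 0.306, 0.0405, 0.256 and 2.77 CPM in Fgfr3-WT and 24.5, 88.8, 37.4, 53.2 and 41.3 CPM in P28 (log2 fold change 6.21 ± 0.97, edgeR adjusted p = 0.000408). Bmp2 lay at 0.683 to 4.92 CPM in Fgfr3-WT against 7.31 to 56.6 CPM in P28 (log2 fold change 3.36 ± 0.71, edgeR adjusted p = 0.00273). Tgfb1 (0.22) and the receptor Acvr1 (0.50) were not called, though Acvr1 was without Fgfr3-WT replicate 1 (adjusted p = 0.00558). Of 20 FGF and ERK feedback genes 7 rose and 2 fell, with a median of 0.32 (45.0% called against 38.9% of all genes). None fell without Fgfr3-WT replicate 1 or P28 replicate 1, and 4 rose at an adjusted p of 0.01. The rises were led by Spry1, an inhibitor of receptor tyrosine kinase signalling, at 0.652, 0.383, 1.5, 0.0285 and 0.119 CPM in Fgfr3-WT and 14.5, 60.6, 12.5, 12.4 and 14.3 CPM in P28 (log2 fold change 5.44 ± 0.84, edgeR adjusted p = 0.000381). The ETS factor Etv4 rose by 4.32 and the ERK phosphatase Dusp5 by 2.40 without overlap, whereas Dusp6 (-0.93), Etv5 (-0.52) and Spry2 (-0.20) were not called. Hhip, a hedgehog decoy receptor and pathway target, was at 0 to 0.171 CPM in Fgfr3-WT against 1.72 to 24.95 CPM in P28 (log2 fold change 8.26 ± 1.14, edgeR adjusted p = 0.000196). Gli1, another target, lay at 0.0383 to 0.673 CPM in Fgfr3-WT against 0.71 to 3.2 CPM in P28 (log2 fold change 2.57 ± 0.68, edgeR adjusted p = 0.00959), and both were low. Ptch1 overlapped and was not called (1.15, and adjusted p = 0.0459 without Fgfr3-WT replicate 5). Of 17 immediate early genes, 4 were higher and 1 lower, 29.4% called against 38.9% of all genes. Among them Egr3 (4.27) and Nr4a1 (3.19) rose without overlap and Fos (-0.36) was not called. In the YAP and CCN list 6 of 13 were higher and 2 lower (1 without Fgfr3-WT replicate 1), of which Tead2 rose (4.62) and Ccn2 fell (124 to 8551 CPM in Fgfr3-WT against 105 to 575 CPM in P28, log2 fold change -3.94 ± 0.84, edgeR adjusted p = 0.00278) with Fgfr3-WT and P28 clones overlapping.

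Metabolic genes separated into a list that rose and a list that fell. Of 20 genes of cholesterol synthesis and uptake, 16 were higher and none lower, with a median of 1.75. Hmgcs1, which makes HMG-CoA, was at 32.5, 30.8, 53.8, 37.9 and 33.6 CPM in Fgfr3-WT and 215, 309, 156, 163 and 157 CPM in P28 (log2 fold change 2.41 ± 0.22, edgeR adjusted p = 1.33e-05). Its P28 range lay wholly above that of Fgfr3-WT, as it did for the isomerase gene Idi1 (2.71) and Srebf2, the transcription factor of the pathway (1.47). P4M clones held 68.1, 59.1, 57.2 and 50.3 CPM of Hmgcs1, below every P28 clone (P4M against P28, log2 fold change -1.77 ± 0.24, edgeR adjusted p = 0.00316). CCAAT was in the promoter windows of 12 of 12 genes of this list with a window, against 41.1% of all genes, and a sterol element searched as TCACNCCAC was in 1 of the 12 against 1.44%.

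Of 22 genes of glycolysis and the hypoxia response, 12 were lower and 1 higher (up to 3 when a clone was left out), with a median of -1.22. Aldoa, aldolase A, was at 1511, 1195, 1250.2, 2015 and 2200.3 CPM in Fgfr3-WT and 535, 692, 482, 328 and 449 CPM in P28 (log2 fold change -1.72 ± 0.28, edgeR adjusted p = 0.000506). Gpi1 (-1.89), Tpi1 (-1.62), Ldha (-1.28) and the liver-type phosphofructokinase Pfkl (-2.08) fell without overlap. So did Bnip3, a mitophagy receptor induced by hypoxia, at 162, 106, 119, 180.4 and 256 CPM in Fgfr3-WT and 29.4, 27.2, 24.5, 20.1 and 24.9 CPM in P28 (log2 fold change -2.71 ± 0.40, edgeR adjusted p = 0.000309). Gapdh (-0.36), Pkm (-0.54) and Vegfa (-0.74) were not called, nor was Eno1 (log2 fold change 0.70 ± 0.27, edgeR adjusted p = 0.052). Vegfa was called without Fgfr3-WT replicate 4 or P28 replicate 2 (adjusted p = 0.0377 and 0.00486), and Eno1 without Fgfr3-WT replicate 4, P28 replicate 3 or P4M replicate 2 or 3 (down to 0.038). Myc was at 24.95, 12.8, 29.6, 10.2 and 14.1 CPM in Fgfr3-WT and 44.1, 77.4, 51.0, 74.6 and 79.6 CPM in P28 (log2 fold change 1.83 ± 0.28, edgeR adjusted p = 0.000389). In its list 10 of 22 Myc and ribosome biogenesis genes were higher, 6 without P28 replicate 4 or 5, with a median of 0.41. Of the ATF4 and endoplasmic reticulum stress genes 27.8% were called, against 38.9% of all genes. The 5 of 18 that were called all fell, 3 to 8 over the fits that left out a clone. They included the chaperone Hsp90b1 (2542 to 3929.8 CPM in Fgfr3-WT against 979.8 to 1202 CPM in P28, log2 fold change -1.52 ± 0.24, edgeR adjusted p = 0.000406) and Ddit3 (CHOP, -2.11), while Atf4 itself was not called (-0.06). Of 12 antioxidant genes, Gclc fell (-1.53) and Gclm and Abcc1 rose (0.71 and 0.86).

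Of 26 interferon-stimulated genes, 5 were lower and 3 higher, 30.8% called against 38.9% of all genes. Only 1 was higher without Fgfr3-WT replicate 1 or 2, P28 replicate 3 or 5 or P4M replicate 1 or 2, and 0 with only the 10 clones compared. Ifit3, which binds viral RNA complexes, was at 23.1, 419, 231, 1236 and 68.2 CPM in Fgfr3-WT and 8.07, 3.42, 22.1, 3.67 and 4.43 CPM in P28 (log2 fold change -5.57 ± 1.01, edgeR adjusted p = 0.00103), a wide range in Fgfr3-WT, and Ifit2 fell with it (-2.12). Ifit1 (-0.92) was not called. Among MHC class I genes 4 of 13 fell, including the peptide transporter gene Tap2 (39.6 to 73.6 CPM in Fgfr3-WT against 8.78 to 24.5 CPM in P28, log2 fold change -1.70 ± 0.35, edgeR adjusted p = 0.00215), while H2-K1, a classical heavy chain (-0.34), was not called. Only 2 of the MHC class I genes fell without Fgfr3-WT replicate 4 or P28 replicate 1, 2 or 3, and 30.8% of that list was called. Complement had the lowest median, -2.03, with 5 of 9 lower. C1s1, a protease of the first component, was at 512, 1635, 513, 571 and 738 CPM in Fgfr3-WT and 173, 60.8, 164, 111 and 50.6 CPM in P28 (log2 fold change -2.83 ± 0.49, edgeR adjusted p = 0.000825), and C1ra fell likewise (-2.03). Tnfrsf11b, osteoprotegerin, the decoy receptor that blocks osteoclast formation, was at 195, 695, 929, 267 and 365 CPM in Fgfr3-WT and 35.0, 43.8, 18.05, 41.1 and 19.3 CPM in P28 (log2 fold change -3.96 ± 0.60, edgeR adjusted p = 0.000325). Its ligand Tnfsf11 (RANKL) was too low to be tested, with at most 61 counts in a P28 clone and 0 in every Fgfr3-WT clone. Of 12 chemokine and cytokine genes tested, 5 were higher and 2 lower (1 without Fgfr3-WT replicate 2), and none of the 5 was left with at least 10 counts in each clone. Among them Ccl2, a monocyte attractant, rose from near 0 to at most 8.41 CPM (3.94).

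**Figure D3:**
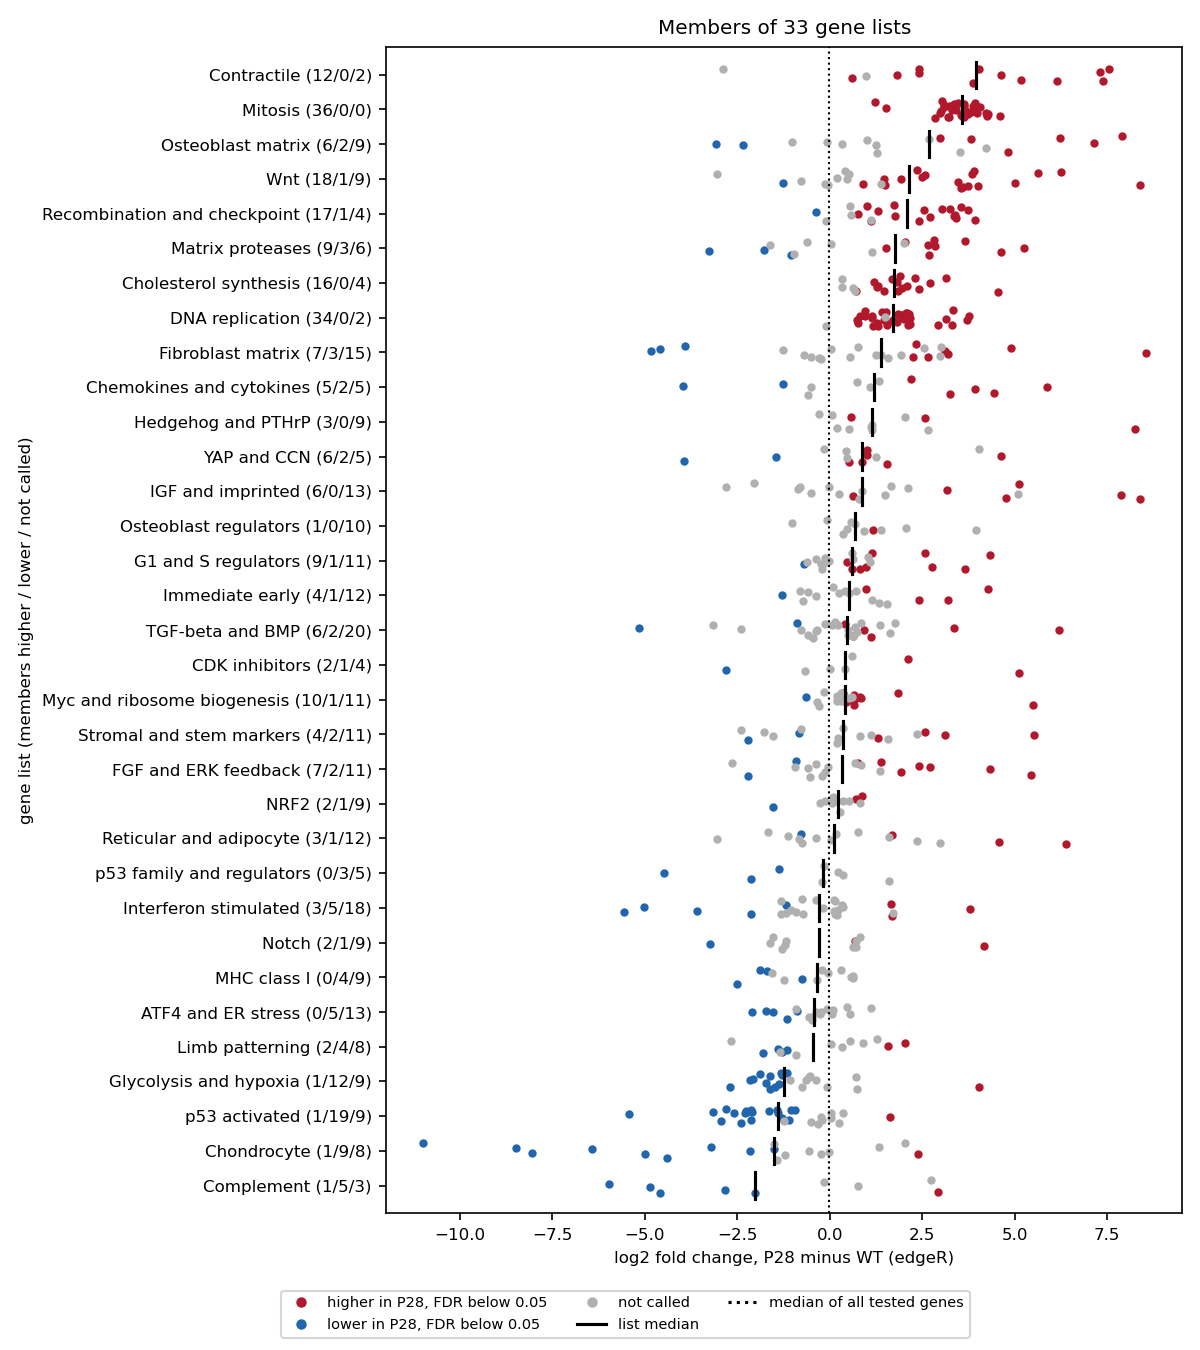
Log2 fold change (P28 minus Fgfr3-WT, edgeR) of each tested member (point) of 33 gene lists, ordered by list median (black bar), with the counts of members higher, lower and not called beside each name. Red and blue points were called at an adjusted p of 0.05, and the dotted line is the median of all tested genes, -0.02. Contractile and mitosis genes have the highest medians, 3.96 and 3.56, and complement and cartilage genes the lowest, -2.03 and -1.51.

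Of the remaining lists, 2 of 12 Notch genes rose and 1 fell (2 without P28 replicate 5), with Lfng, which modifies the receptors, at 4.17. Limb patterning genes held 2 of 14 higher and 4 lower, near that share (42.9% called). Without Fgfr3-WT replicate 3, 4 were higher, and without Fgfr3-WT replicate 2, P28 replicate 1, 2 or 3 or P4M replicate 4, only 2 were lower. Hoxa9 fell without overlap (85.0 to 109 CPM in Fgfr3-WT against 31.7 to 57.1 CPM in P28, log2 fold change -1.16 ± 0.19, edgeR adjusted p = 0.000557), and the hindlimb factor Pitx1 ranged over 0.0478 to 84.2 CPM among the P28 clones and was not called. Of growth factor and imprinted genes, 6 of 19 rose (31.6% called, below that of all genes). Igfbp6, a binding protein of IGF2, was at 0.0977 to 0.237 CPM in Fgfr3-WT against 0.512 to 201 CPM in P28 (log2 fold change 8.39 ± 1.68, edgeR adjusted p = 0.00192), while Peg3 (-0.84) was not called.

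The genes that fell most came from several classes. S100b, a calcium-binding protein of glia and chondrocytes, was at 228, 107, 349, 614 and 47.9 CPM in Fgfr3-WT and 3.05, 0.837, 3.24, 4.13 and 1.33 CPM in P28 (log2 fold change -6.73 ± 1.04, edgeR adjusted p = 0.000389). Neat1 is the noncoding RNA that builds paraspeckles and a known p53 target. It was at 6199, 9408, 4451, 4981 and 6560.4 CPM in Fgfr3-WT and 612, 507, 722, 497 and 389 CPM in P28 (log2 fold change -3.53 ± 0.29, edgeR adjusted p = 7.14e-06). Its counts are part of the share of long intergenic noncoding RNAs given above. Gria3, a glutamate receptor subunit, was at 75.3 to 576 CPM in Fgfr3-WT against 2.75 to 37.9 CPM in P28 and fell further in P4M (P4M against P28, log2 fold change -8.34 ± 1.35, edgeR adjusted p = 0.00651). Trpv4, a calcium channel of cartilage (-4.02), Chst11, which sulfates chondroitin (-3.53), cystatin C Cst3 (-3.55), the epoxide hydrolase Ephx1 (-3.71) and Ddit4, an inhibitor of mTORC1 induced by stress (-3.62), fell without overlap. So did Rab11fip4 (-4.15), Eps8l2 (-3.58) and Fibin (-3.54). Ifi202b, an interferon-inducible gene, was at 16.9, 10.5, 27.3, 21.1 and 30.6 CPM in the Fgfr3-WT clones and had no count in any P28 or P4M clone, the one gene with at least 10 CPM in every Fgfr3-WT clone and at most 3 counts in every P28 clone. It was outside the rule for named genes and was chosen after its values were seen.

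Among genes at 4 or more on the mean log2 CPM scale, 4 of the 5 genes with the lowest adjusted p were copies that share sequence with highly expressed genes. Eno1b was at 236, 185, 349, 403 and 326 CPM in Fgfr3-WT and 1.55, 1.63, 0.934, 1.71 and 2 CPM in P28 (log2 fold change -7.58 ± 0.33, edgeR adjusted p = 2.67e-08). Rpl3-ps1 lay at 121 to 219 CPM in Fgfr3-WT against 5.05 to 8.06 CPM in P28 (log2 fold change -4.59 ± 0.21, edgeR adjusted p = 3.08e-08). Gm4735 and Gm13394 had log2 fold changes of -6.51 and -6.01. The presumed sources by name, Eno1 and Rpl3, were not called (0.70 and 0.55), though Rpl3 was without Fgfr3-WT replicate 1 or 4, P28 replicate 4 or P4M replicate 4 (adjusted p down to 0.0303). P4M clones, of the same submission as P28, held 3.81, 3.05, 5.85 and 5.39 CPM of Eno1b. How reads were divided between such copies was not tested, and these 4 values are uncertain. Processed pseudogenes as a class took 0.764 to 1.30% of the counts in Fgfr3-WT and 0.752 to 1.01% in P28.

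Markers of other cell types that the cultures could hold were examined list by list. In the myeloid list, Ptprc (CD45), Adgre1, Itgam, Tyrobp and C1qa had at most 6 counts in any of the 10 clones and were not tested. Lyz2 (-2.30) and Cd68 (-3.47) fell, the call of Lyz2 being lost without Fgfr3-WT replicate 4 (adjusted p = 0.0539), and Csf1r, the receptor of a macrophage growth factor, rose at a low level (0.0792 to 0.607 CPM in Fgfr3-WT against 0.215 to 1.46 CPM in P28, log2 fold change 1.81 ± 0.63, edgeR adjusted p = 0.0366). The call of Csf1r was lost in 7 of the 14 fits without 1 clone, at adjusted p values of up to 0.0998. The summed level of the list was 24.0 to 176 TPM in Fgfr3-WT and 17.0 to 40.5 TPM in P28. The erythroid list was at most 0.94 TPM in these clones, and the endothelial genes Cdh5 and Emcn had at most 1 count. Of the other endothelial genes, Tek and Pecam1 reached 17 and 12 counts and were not tested, Vwf was not called (-0.92), and Kdr, a receptor of vascular endothelial growth factor, rose (0 to 0.569 CPM in Fgfr3-WT against 0.307 to 4.11 CPM in P28, log2 fold change 3.61 ± 1.09, edgeR adjusted p = 0.019). In the glial list S100b fell and the sum was 57.9 to 582 TPM in Fgfr3-WT and 3.64 to 9.35 TPM in P28, with Sox10 and Foxd3 at 3 counts or fewer. In the osteoclast list, Ctsk (cathepsin K) was at 129 to 358 CPM in Fgfr3-WT against 35.1 to 104 CPM in P28 (log2 fold change -2.07 ± 0.60, edgeR adjusted p = 0.0147), and Dcstamp had no counts. Acp5, the acid phosphatase TRAP, rose with overlap (0 to 0.0792 CPM in Fgfr3-WT against 0.0256 to 11.3 CPM in P28, log2 fold change 7.11 ± 1.46, edgeR adjusted p = 0.0022). Cdh1, the epithelial cadherin, had no counts in Fgfr3-WT and 0.0256 to 6.26 CPM in P28, and Epcam and Krt5 had at most 3 counts. In the muscle list Acta1, skeletal muscle actin, rose (0 to 0.752 CPM in Fgfr3-WT against 0.584 to 14.4 CPM in P28, log2 fold change 3.89 ± 0.98, edgeR adjusted p = 0.00722), and the sum was 0 to 4.73 TPM in Fgfr3-WT and 2.89 to 26.3 TPM in P28. The part of other cells in the results was not tested beyond these values.

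Changes were spread unevenly over the chromosomes. Over 9635 genes whose mean log2 CPM was 3 or more, on chromosomes 1 to 19 and X, 19.9% were higher and 20.9% lower. On chromosome 4, 41.6% were higher and 6.19% lower, and the median shift of its genes from the Fgfr3-WT mean was 0.29 to 0.58 on the log2 scale in the 5 P28 clones. On chromosome 10, 42.3% were lower, with shifts of -0.45 to -0.39. Chromosome 7 was lower in all 5 clones too (-0.64 to -0.10), and lowest in P28 replicates 4 and 5. Single Fgfr3-WT clones reached into these ranges, replicates 3 and 5 on chromosome 4 (0.38 and 0.30), replicate 3 on chromosome 7 (-0.12) and replicate 2 on chromosome 10 (-0.39). Single P28 clones stood apart elsewhere, such as P28 replicate 2 on chromosome 16 (-0.67). The Fgfr3-WT clones were not level themselves. Relative to the other 4, replicate 3 was shifted by 0.54 on chromosome 13, replicate 4 by -0.51 on chromosome 15, replicate 5 by -0.52 on chromosome 8, and replicates 1 and 2 by -0.42 and -0.40 on chromosome 4. On X, replicate 1, the clone with Y-linked counts, was shifted by -1.43. The 4 P4M clones had shifts of the same sign as P28 on chromosomes 4, 7 and 10, measured from the same Fgfr3-WT mean. Copy number was not measured in these libraries.

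**Figure D4:**
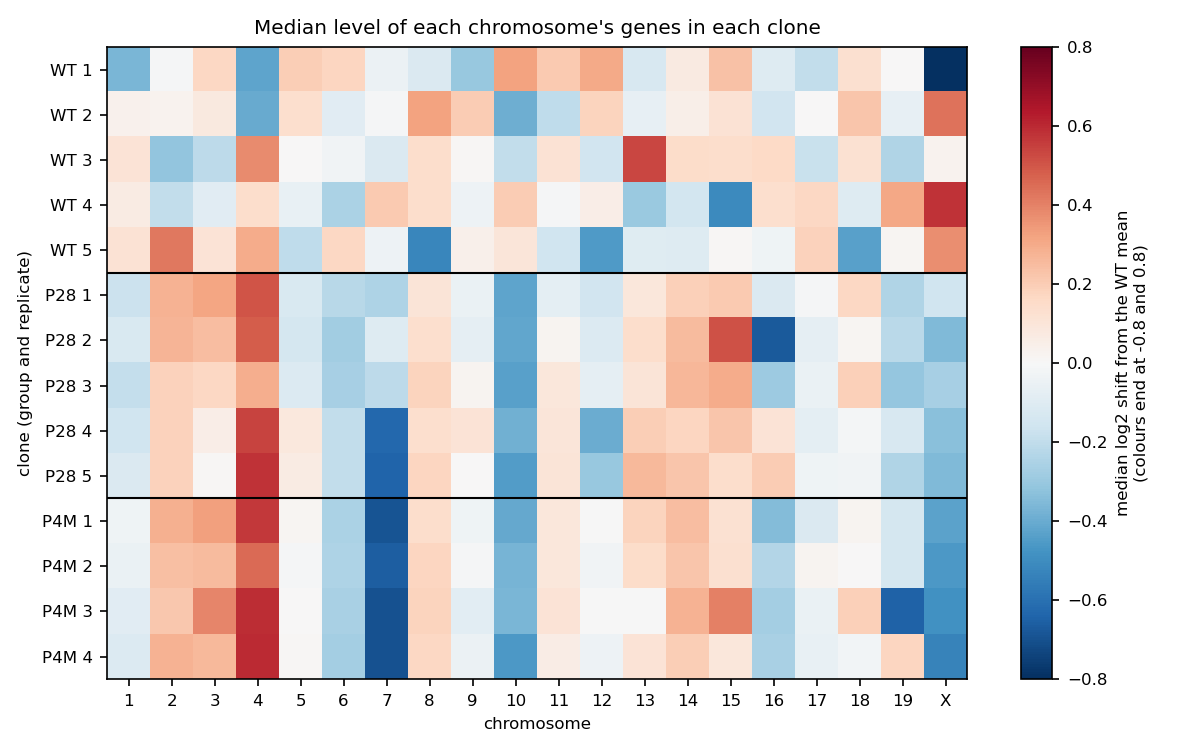
Median log2 shift of the genes of each chromosome (horizontal axis) in each clone (vertical axis), relative to the Fgfr3-WT mean and to the autosomal median of the clone. An Fgfr3-WT clone was set against the other 4, and colours end at -0.8 and 0.8. Chromosome 4 is red and chromosome 10 blue in all 5 P28 clones and in single Fgfr3-WT clones, and among the P28 clones chromosome 7 is darkest in replicates 4 and 5.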

How the data were processed

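RNA was taken from cultured tdTomato+ clones, 1 library a clone, with SMART-Seq v4 and Nextera XT, and read single-end on a NovaSeq. The authors aligned reads to mm10 with TopHat and Bowtie2 and ran FastQC. The study's methods state HTSeq counts of unambiguous reads and DESeq2, whereas a deposited table with the same values is named expected counts, so how reads were shared between copies is not settled. An Ensembl annotation is named by the study. Tool versions and the strand setting are not given in the sources used here. The deposited table of counts holds 30503 genes and was used as deposited. The deposited expected counts were equal to it for 30503 genes, and the other 24924 genes of that table had at most 1 count in all, so the rounded expected counts, listed as an alternative, could only return the same result. The deposited TPM, made by the authors, were used only for summed levels of marker lists. Depth-normalized, rlog and FPKM tables were not used.

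Groups were taken from the sample labels. From the counts, edgeR 4.0.16 (R 4.3.3) fitted all 14 clones in 3 groups without covariates, with TMM scaling, filterByExpr and the robust quasi-likelihood F test, and P28 minus Fgfr3-WT was called at a Benjamini-Hochberg adjusted p of 0.05 over the 17358 genes tested. The standard error is the absolute log2 fold change divided by the square root of F. Totals of 25688946 to 38958693 counts in Fgfr3-WT and 37606033 to 48648618 in P28 set the precision for low genes. The fit was first tested on simulated data drawn from these libraries, with the spread between clones held under a limit. It called 41% of 100 genes made to change by 1 on the log2 scale and 82% of 100 changed by 2. There were 4 false calls. A gene that was not called may therefore still differ. Symbols came with the files. Coordinates were those of the GENCODE M21 annotation on GRCm38, which is mm10, and 30452 genes matched it. Promoter windows were from RefSeq on GRCm38.p6.

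The text names Trp53, the 15 genes with the largest rises and the 15 with the largest falls among called genes at 4 or more on the mean log2 CPM scale that did not overlap, were protein coding or lincRNA and had no predicted symbol, the 5 with the lowest adjusted p at that level, and members of 41 lists (33 of pathways, 8 of cell markers). The lists and the comparison were chosen with earlier results of these data known, so no p was adjusted over a list. Alternatives were DESeq2 1.42.0, other scalings, filters and thresholds, the 10 clones alone, no X and Y genes, and each clone left out. Chromosome shifts used genes whose mean log2 CPM was 3 or more. Python 3.11.15, numpy 2.4.6, pandas 2.3.3, scipy 1.17.1 and matplotlib 3.10.9 were used for summaries and plots. Some items are not reported here.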

Additional observations from a re-analysis of the deposited data

Results flagged for a closer look

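Single clones lay far from the other 4 of their group for 26 of 396 gene and group pairs, by Dixon's ratio of the gap to the range of log2 CPM, and chance alone gives about 1 in 20. Fgfr3-WT replicate 1 was high for Aqp1 (10.6 CPM) and Rpl3-ps1 (219 CPM), and low for Cdkn2c (10.8 CPM), H2-K1 (3.88 CPM), Ly6a (4.76 CPM) and Xist (0.163 CPM). Fgfr3-WT replicate 3 was high for Axin2 (3.11 CPM). Its value for Myocd (0.0405 CPM) is 1 count against 0 in the other 4, which lies within what a count of 0 allows and is no measured difference. Fgfr3-WT replicate 4 was high for Hhip (0.171 CPM, a few counts against 0) and Kdr (0.569 CPM). Fgfr3-WT replicate 5 was high for Bbc3 (33.4 CPM), Col1a2 (4354 CPM), Ibsp (92.9 CPM), Myl9 (5.82 CPM), Runx2 (94.0 CPM) and Sp7 (38.7 CPM), and low for Acan (0.475 CPM). P28 replicate 1 was high for Acvr1 (96.8 CPM), and low for E2f8 (3.89 CPM) and Mcm7 (63.9 CPM). P28 replicate 2 was high for Cdk4 (445 CPM), Idi1 (170.0 CPM) and Spry1 (60.6 CPM). P28 replicate 3 was high for Egr3 (18.2 CPM). P28 replicate 5 was low for Ephx1 (39.1 CPM) and Pdgfrb (273 CPM).

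Clones isolated at 4 months and at P28 carry the same deletion, and their direct contrast was called for 36 of the genes named in the text, at edgeR adjusted p values of 0.00316 to 0.0489 (7.22% of all genes were called). On the log2 scale of P4M minus P28, 24 were higher in P4M, Bnip3 (1.90), Cdkn1a (2.27), Ddit3 (1.55), Dmp1 (5.94), Dusp6 (2.35), Eno1 (1.17), Eno1b (1.53), Etv4 (1.42), Gapdh (1.02), Gclm (1.01), Gm4735 (1.27), Ldha (1.15), Myc (1.04), Myocd (3.42), Pfkl (1.68), Phex (3.86), Phospho1 (2.73), Rb1 (1.18), Rpl3-ps1 (0.70), Spry1 (2.57), Tgfb1 (1.42), Tpi1 (1.30), Vegfa (1.33) and Vwf (6.07). The other 12 were lower in P4M, C1s1 (-2.38), Col10a1 (-5.99), Col2a1 (-4.94), Gria3 (-8.34), Hmgcs1 (-1.77), Hoxa9 (-1.17), Idi1 (-1.58), Ifit2 (-1.45), Mcam (-1.62), Nr4a1 (-1.45), Plk2 (-1.98) and Vcl (-0.80). For Vwf, P4M replicate 3 stood at 237 CPM and the other 3 P4M clones at 3.46 to 6.74 CPM. This contrast and P28 against Fgfr3-WT share the P28 clones, so they are not independent.

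Some list members were left out by the filter on low counts although 1 clone held many. They were Cxcl14 (at most 1695 counts in a clone), Bmp7 (at most 589 counts in a clone) and Gdf10 (at most 728 counts in a clone) and the Y-linked Ddx3y (at most 3781 counts in a clone), Eif2s3y (at most 2092 counts in a clone), Kdm5d (at most 2117 counts in a clone) and Uty (at most 1218 counts in a clone).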

How the results depend on the processing

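The number of genes called stayed within 1.5 times of 6750 with DESeq2 (8078, 4081 higher and 3997 lower), with relative log expression scaling (6759), without scaling (6667), without a filter (6670), with at least 10 counts in each clone (5263), with only the 10 clones compared (5467), without X and Y (6592) and with any 1 clone left out (5805 to 7253). A minimum absolute log2 fold change of 1 left 4040 genes, 1982 higher and 2058 lower, and an adjusted p of 0.01 left 4036, 2027 higher and 2009 lower, as fewer genes can pass. The expected counts hold the same values for these genes, so that setting could only return 6750 and tests nothing. Of 198 tested genes named in the text, 151 were called, 121 of them in every setting that tested them, and none of the 151 changed sign. Of the other 30, 17 were lost only at the 2 stricter thresholds and 13 when some clone was left out, which is given beside each of them. Calls lost were 0 with DESeq2, 8 without a filter, 5 of 148 with only the 10 clones compared, 3 without scaling, 1 with relative log expression scaling and 1 of 112 with at least 10 counts in each clone. Genes not called with a sign that changed were Atf4 (0.0242 without scaling, and -0.2686 to 0.0867 over the fits that left out a clone), Sesn1 (-0.0016 without X and Y, and -0.13 to 0.35), Atm (-0.24 to 0.0076), Col10a1 (-1.35 to 0.25), Fos (-0.72 to 0.49), Gins3 (-0.2072 to 0.0256), Ifit1 (-1.79 to 1.39), Pdgfra (-0.14 to 0.83) and Spry2 (-0.41 to 0.41). Of 22 list counts of at least 5, only 7 stayed within 1.5 times in every setting. With at least 10 counts in each clone, called members also fell from 12 to 4 for contractile genes, from 6 to 3 for bone matrix genes called higher, from 6 to 1 for growth factor and imprinted genes and from 5 to 2 for complement, since that filter takes out genes near 0 in a clone. At an adjusted p of 0.01, lower calls went from 9 to 5 for cartilage and from 5 to 2 for complement. Higher calls went from 7 to 3 for fibroblast matrix and from 6 to 2 for TGF-beta and BMP genes. A minimum absolute log2 fold change of 1 took the Myc list from 10 to 2 higher.

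No paired analysis was possible because replicate numbers only count up the clones of a group and tie no Fgfr3-WT clone to a P28 clone. Genotype, age, submission number, time in culture and the selection of clones that lasted cannot be told apart, and 1 Fgfr3-WT clone differed in sex-linked genes. The number of mice behind the clones is not settled, since the study gives the group sizes both as clones and as mice. At these depths genes under about 0.1 CPM cannot be told from 0.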
